A study of Mus musculus with 28 samples.

Results

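Ribosome-bound RNA of parvalbumin (PV) interneurons was compared with that of CaMK2a-expressing neurons in hippocampal CA1 of mice 6 h after kainic acid, which activates kainate-type glutamate receptors and triggers seizure activity. The 4 anti-HA immunoprecipitates (IP) of the PV line and the 3 of the CaMK2a line after kainic acid were chosen by their labels, 7 of the 28 libraries of the study. The PV mice carried PV-Cre and the CaMK2a mice CaMK2a-Cre, each in 1 copy, together with 1 copy of a Cre-dependent Rpl22-HA allele. All were C57BL/6 mice aged 3 to 4 weeks. In this RiboTag design Cre switches on an HA epitope on the ribosomal protein Rpl22, so tagged ribosomes and their transcripts can be pulled out of a tissue lysate with an anti-HA antibody. Total lysate RNA (input) of the same pools was sequenced as well, and matching groups received PBS. Each PV pool held CA1 of 9 to 10 mice and each CaMK2a pool that of 4 mice. Library preparation started from 2.5 ng of RNA in the PV line and 20 ng in the CaMK2a line. Cell type, pool size and RNA amount all go with the line and cannot be told apart in the IP comparison. The input libraries differ between the lines in the same pool size and RNA amount, and their line difference is given beside the genes described in detail.

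PV interneurons are GABAergic basket and chandelier cells that inhibit pyramidal neurons around the cell body and axon start. They fire fast and briefly, with the help of Kv3 potassium channels and of calcium buffering by parvalbumin. CA1 pyramidal neurons are the glutamatergic output cells of the region and make up most of the CaMK2a-expressing population. After strong activity both kinds of neuron transcribe immediate early genes such as Fos, followed by secreted and synaptic effector genes.

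The IP libraries held 10.9 to 15.8 M counts in the PV line and 7.93 to 9.75 M in the CaMK2a line. Levels are library-size scaled counts (CPM) with TMM factors over the 7 libraries, and differences are PV minus CaMK2a on the log2 scale ± SE, tested with edgeR's quasi-likelihood test. Of 11159 genes tested, 1429 were higher (12.8%) and 996 lower (8.93%) in the PV IP at adjusted p under 0.05, and the median difference over all genes was 0.05. Counts of called list members below are to be read against these shares. The higher genes reached further: 444 were at least 4-fold higher and 90 at least 4-fold lower, and the counts at 16-fold were 55 and 7. In the input, 1292 of 11374 genes (11.4%) were called higher and 744 (6.54%) lower in the PV line, but only 15 and 12 of them by 4-fold. Fold size, more than the number of calls, set the IP apart from the input.

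The calls rest on few libraries. Without CaMK2a replicate 2 or replicate 3, 758 and 696 genes were higher in the PV IP. Without CaMK2a replicate 1, 2 or 3, 656, 512 and 451 were lower. The input calls depend on single libraries to a far greater extent: leaving out any 1 of the 3 CaMK2a inputs or PV inputs 1 to 3 left 0 to 5 genes called in all by edgeR, with 2663 to 3800 genes at an unadjusted p under 0.05, while leaving out PV input 4 gave 5457. Input differences are thus given below as sizes, without calls. Log CPM correlated at r 0.9225 to 0.9356 within the PV IP, at 0.9708 to 0.9808 within the CaMK2a IP and at 0.9015 to 0.9351 between the lines. The PV IP libraries were thus less alike than the CaMK2a ones. PV replicate 4 did not stand apart from the other PV libraries by this measure (0.9356, 0.927 and 0.933 with PV replicates 1, 2 and 3), but it did in other values. Its share of mitochondrial counts was 0.91% in the IP against 2.80 to 3.38% in PV replicates 1 to 3 and 0.62 to 0.93% in the CaMK2a IP. Without it, 1782 genes were higher and 1445 lower. Long transcripts were higher in the PV line in both fractions: over the 2790 longest genes tested (5297 bases or more) the median difference was 0.25 in the IP and 0.34 in the input, and over the 2792 shortest (up to 2177 bases) it was -0.07 and -0.36. The part of length and of RNA amount in single IP results was not tested, other than by the difference between IP and input. That difference was tested on group means, without the pairing of IP and input by pool. On simulated counts its test recovered 13.1% of 2-fold and 56.1% of 4-fold changes, so genes that did not pass it may still differ.

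Genes that define PV cells were far more abundant in the PV IP. Pvalb (GeneID 19293, mm10 chr15:78191117-78206351, minus strand, 5 exons), which encodes parvalbumin, had the largest difference towards PV among genes that were called, averaged a log2 CPM of at least 3 and had groups that do not overlap. Its level was 87.4, 84.4, 92.5 and 163 CPM in the 4 PV IP libraries and 2.01, 0.839 and 1.52 CPM in the 3 CaMK2a IP libraries. The groups lay far apart, and PV replicate 4 was the highest. The difference was 6.20 ± 0.40 (adjusted p = 2.9e-06), or 73.7-fold. In the input it was -1.98 ± 0.32: Pvalb stood at 5.84 ± 2.94 CPM (SD, n = 4) in PV lysates and 23.4 ± 1.57 CPM (n = 3) in CaMK2a lysates. The IP difference was larger than the input difference by 8.15 (adjusted p = 2.1e-08).

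All 13 tested markers of PV interneurons were higher in the PV IP, with a median of 3.22 against 0.05 over all genes, and 12 to 13 of them in each fit without 1 library. Their median in the input was -0.12. Lhx6 and Ank1 of the list of 15 were not analysed here. Erbb4, the neuregulin receptor of these cells, was at 579, 592, 580 and 779 CPM in the PV IP and at 16.1, 10.2 and 11.7 CPM in the CaMK2a IP. It differed by 5.65 ± 0.25 (adjusted p = 2.7e-07), with 0.66 ± 0.21 in the input. Syt2, the fast calcium sensor of PV terminals, was at 426 to 692 CPM against 16.6 CPM to 25 CPM and differed by 4.72 ± 0.26, with -0.29 in the input. Cox6a2, a subunit of respiratory complex IV, was at 16.8 to 34.4 CPM against 0.628 to 1.12 CPM. Its difference was 4.96 ± 0.46 in the IP and -1.24 in the input. The Kv3 channel genes Kcnc1 and Kcnc2, which give these cells their short spikes, differed by 2.65 ± 0.22 and 3.22 ± 0.22, with -0.24 and 0.26 in the input. Satb1 had the smallest difference of the markers at 0.92, and the 1 marker whose IP difference was not larger than its input difference by test (adjusted p = 0.0891).

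The machinery of GABA synthesis and release, and the transcription factors of interneuron development, were higher in the PV IP in 12 of 13 cases, with a median of 4.23 and a median of -0.07 in the input. Gad1 (GeneID 14415, chr2:70561768-70602014), one of the enzymes that make GABA, was at 941, 882, 922.7 and 1454 CPM in the PV IP and at 69.0, 36.6 and 45.96 CPM in the CaMK2a IP. The groups lay far apart, and the difference was 4.38 ± 0.29 (adjusted p = 3.2e-06), with -0.44 ± 0.13 in the input. Slc32a1, which loads GABA into vesicles, was at 168, 168, 136 and 281 CPM against 5.90, 2.52 and 4.06 CPM, a difference of 5.51 ± 0.37 with -0.57 in the input. Gad2 was at 1016 to 1199 CPM against 77.5 to 143 CPM, a difference of 3.29 ± 0.23 with 0.73 in the input. Nxph1, a neurexin ligand of interneurons, differed by 5.21 ± 0.29, and Maf by 5.15 ± 0.39, with 0.40 and 0.21 in the input. Dlx6 (2.46) was the member that was not called.

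**Figure D1:**
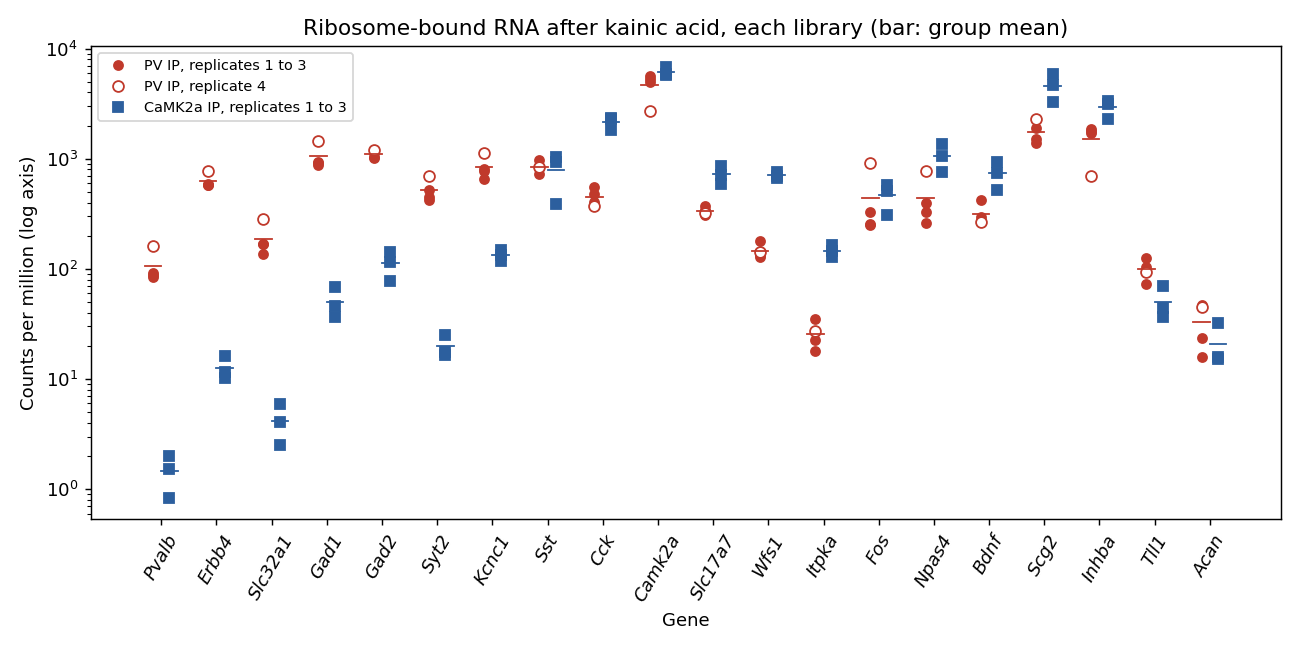
Level of 20 genes in each IP library after kainic acid, in CPM on a log axis. Red circles are the 4 PV libraries (open for replicate 4), blue squares the 3 CaMK2a libraries, and bars group means. Pvalb lies at 84.4 to 163 CPM in PV and at 0.839 to 2.01 CPM in CaMK2a, whereas the groups overlap for Sst, Fos, Npas4 and Acan.

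Genes were also ranked without regard to the lists, among those that met the 3 conditions given for Pvalb. The 10 largest differences towards PV were Pvalb, Btbd11 (5.91 ± 0.57), Kcng4 (5.65 ± 0.38), Erbb4, Slc32a1, Moxd1 (5.37 ± 0.44), Nxph1, Tuba1c (5.18 ± 0.49), Maf and Cox6a2. Btbd11 was at 128 to 232 CPM in the PV IP and at 0.314 to 5.15 CPM in the CaMK2a IP, with an input difference of -0.26. Kcng4, a silent subunit that modifies Kv2 channels, was at 79.0 to 146 CPM against 1.42 to 3.39 CPM, with -0.34 in the input. Tuba1c, an alpha tubulin, was the 1 gene of these with a large difference of the same sign in the input, 2.51, and near-identical tubulin genes can share its reads. Pvalb, Cox6a2, Btbd11, Slc32a1 and Kcng4 also led the difference between IP and input among called genes of that average level, by 5.97 to 8.15, where 1143 of 11775 genes (9.71%) were called higher and 1124 (9.55%) lower. With the lysate pool as a block, those counts were 1539 and 1726. Without CaMK2a pools 1, 2 and 3 in turn they were 831 and 634, 582 and 647, and 423 and 364, and without PV pool 4 they were 1595 and 1768.

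Markers of other interneuron classes went mainly one way. Of 16 tested, 9 were higher and 1 lower in the PV IP. In the fits without 1 library 5 to 7 were higher (5 without CaMK2a replicate 2 or 3), and 2 were lower without PV replicate 4. Besides Crhbp, the higher ones were Cort (4.18), Slc17a8 (3.57), Htr3a (2.19), Vip (1.73), Ndnf (1.70), Elfn1 (1.59), Reln (1.46) and Npy (1.095). Cort, Slc17a8, Htr3a, Vip and Ndnf averaged only 4.10 to 9.997 CPM in the PV IP. Crhbp, the binding protein of corticotropin-releasing hormone, was at 212, 234, 216 and 477 CPM against 27.1, 7.23 and 9.54 CPM, a difference of 4.29 ± 0.49 with -0.79 in the input. Sst, the somatostatin gene that marks dendrite-targeting interneurons, was at 724, 981, 817 and 841 CPM in the PV IP and at 1044, 388 and 940 CPM in the CaMK2a IP. The groups overlapped, and the difference of 0.09 ± 0.27 did not pass the test (adjusted p = 0.856), with -0.49 in the input. Cck, which marks another class of basket cell and is also made by pyramidal neurons, was the lower one. It was at 405, 555, 480 and 374 CPM in the PV IP and 1806, 2347 and 2295 CPM in the CaMK2a IP, a difference of -2.24 ± 0.18 (adjusted p = 1.5e-05) with -0.82 in the input.

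Pyramidal markers were lower in the PV IP, by far less than the PV markers were higher. Of 12 tested, 11 were lower and none higher, with a median of -1.998 and a median of -0.60 in the input. Between 9 and 11 were lower in the fits without 1 library. Mpped1 was not analysed here. Slc17a7, the vesicular glutamate transporter VGLUT1, was at 374, 339, 306 and 324 CPM in the PV IP and at 589, 861 and 717 CPM in the CaMK2a IP. That is a difference of -1.11 ± 0.17 (adjusted p = 0.00087), with -0.76 in the input, and IP and input did not differ by test (adjusted p = 0.448). Wfs1, a marker of CA1, was at 128 to 178 CPM against 670 to 758 CPM, a difference of -2.28 ± 0.17 with -0.41 in the input. Pou3f1, a transcription factor of pyramidal cells, differed by -2.70 ± 0.29 and Itpka, a kinase of dendritic spines, by -2.50 ± 0.24, with -0.63 and -0.70 in the input.

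Camk2a, the gene whose promoter drives Cre in the other line, was the exception among them. It was at 5589, 4988, 5272 and 2727 CPM in the PV IP and at 5747, 6746 and 5865 CPM in the CaMK2a IP. Every PV library lay below every CaMK2a library, PV replicates 1 to 3 by little and PV replicate 4 by more, and the difference of -0.40 ± 0.21 did not pass the test (adjusted p = 0.209), with 0.29 in the input. The summed level of the 12 pyramidal markers was 3639 to 6696 CPM in the PV IP, 8559 to 10314 CPM in the CaMK2a IP and 8207 to 8644 CPM in the PV input. Most of each sum was Camk2a itself. On average it gave 4728 of 5643 CPM in the PV IP, 6246 of 9270 CPM in the CaMK2a IP and 6820 of 8436 CPM in the PV input. The sums thus follow Camk2a more than the other pyramidal markers. In such bulk samples fewer cells of a type and less RNA per cell cannot be told apart.

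Transcripts of glia were also higher in the PV IP than in the CaMK2a IP, and both IPs held less of them than their inputs. Of 12 astrocyte markers 9 were higher (median 1.52), of 11 oligodendrocyte markers 11 (median 2.33), and of 6 markers of oligodendrocyte precursors 6 (median 2.12; 2 without CaMK2a replicate 3). Of 13 microglial markers 5 were higher (median 1.08; 1 without CaMK2a replicate 2 or 3, and 3 without PV replicate 1). Endothelial and mural cells are not glia, and of 12 of their markers 2 were higher (0 without CaMK2a replicate 2 or 3, 1 without PV replicate 3 or 4, 4 without PV replicate 2). That count is near the 12.8% higher over all genes, and the groups overlapped for 1 of the 2, Ly6c1. None of these lists had a lower member. The input medians of the 5 lists were -0.43, -0.24, -0.20, -0.53 and -0.17, over the 12, 11, 6, 14 and 13 members tested there.

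The summed astrocyte markers stood at 3994 to 7133 CPM in the PV IP, 1507 to 2819 CPM in the CaMK2a IP and 11450 to 11919 CPM in the PV input. Most of each of these sums was Slc1a2. On average it gave 4713 of 6011 CPM, 1543 of 2153 CPM and 8998 of 11741 CPM. The oligodendrocyte sum was 4813 to 5974 CPM in the PV IP, 639 to 1858 CPM in the CaMK2a IP and 6321 to 8710 CPM in the PV input. For microglia the sums were 180 to 209, 61.6 to 124 and 451 to 661 CPM, and for endothelial and mural cells 66.2 to 88.4, 29.8 to 48.7 and 137 to 190 CPM. None of the markers of these 5 lists was at 0 in all libraries of a group. Fa2h, an enzyme of myelin lipid synthesis, was at 112 to 140 CPM in the PV IP and 12.2 to 42.96 CPM in the CaMK2a IP, a difference of 2.44 ± 0.40 with -0.41 in the input. Slc1a2, the astrocytic glutamate transporter GLT-1, was at 5649, 5087, 5059 and 2722 CPM against 1994, 1054 and 1488 CPM, a difference of 1.61 ± 0.27 with 0.37 in the input. The part that glial RNA carried through the IP plays in other differences between the lines was not tested.

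**Figure D2:**
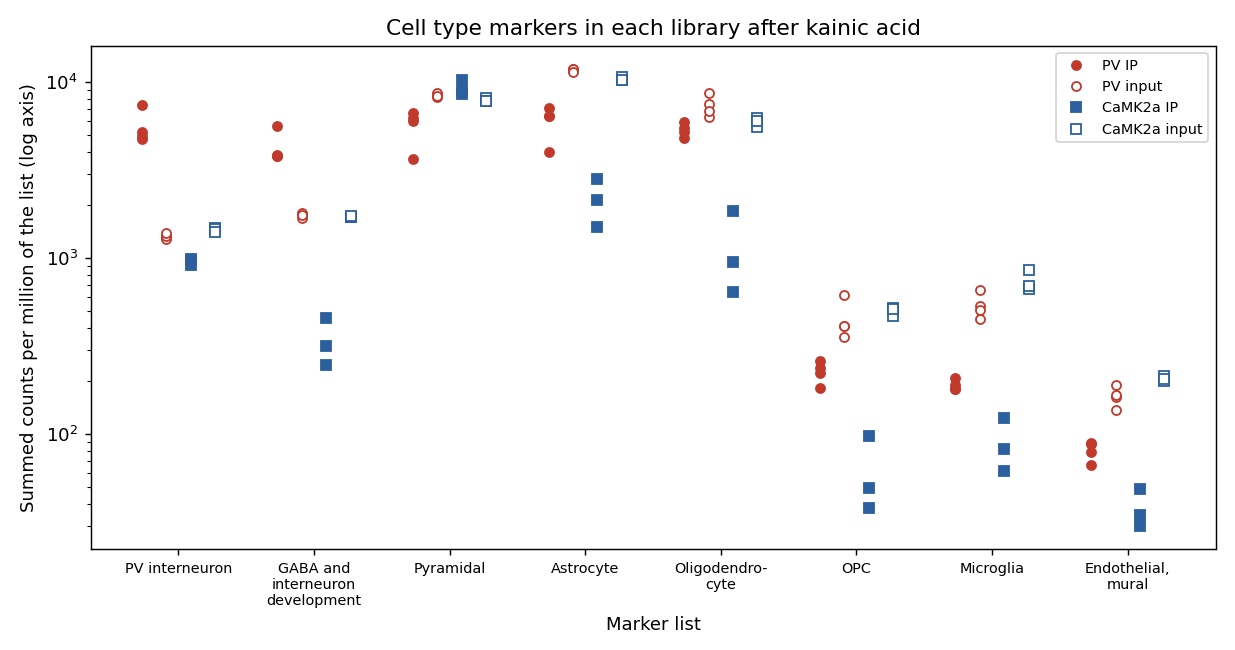
Summed CPM of each marker list (log axis) in each library after kainic acid, scaled over 14 libraries. Filled symbols are IP, open symbols input, red circles PV and blue squares CaMK2a. PV and GABA genes are 4757 to 7468 and 3820 to 5645 CPM in the PV IP, above all other groups, and each glial list is higher in the PV IP than in the CaMK2a IP and lower than in the PV input. Most of the pyramidal sum is Camk2a and most of the astrocyte sum is Slc1a2.

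Markers of neighbouring hippocampal fields were set against 21.7% of all genes called in either direction. Of 9 markers of CA2 and CA3 only Rgs14, a CA2 gene, was called, lower by 2.24 ± 0.36 and by 0.66 in the input. Of 8 dentate granule markers 3 were higher (Dsp, Trpc6 and Stxbp6) and Tdo2 was lower, by 2.78 ± 0.68. That call was lost without CaMK2a replicate 1 (adjusted p = 0.0579) or 3 (0.0769). Dsp differed by 2.65 and Tdo2 by -2.04 in the input as well. Of 4 choroid plexus and ependymal markers tested, Foxj1 was higher (2.29 ± 0.52, with -0.29 in the input), and 2 were higher without CaMK2a replicate 1 or 3. Ttr, a secreted choroid plexus product, ran from 3.86 to 379 CPM within the CaMK2a IP alone.

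**Figure D3:**
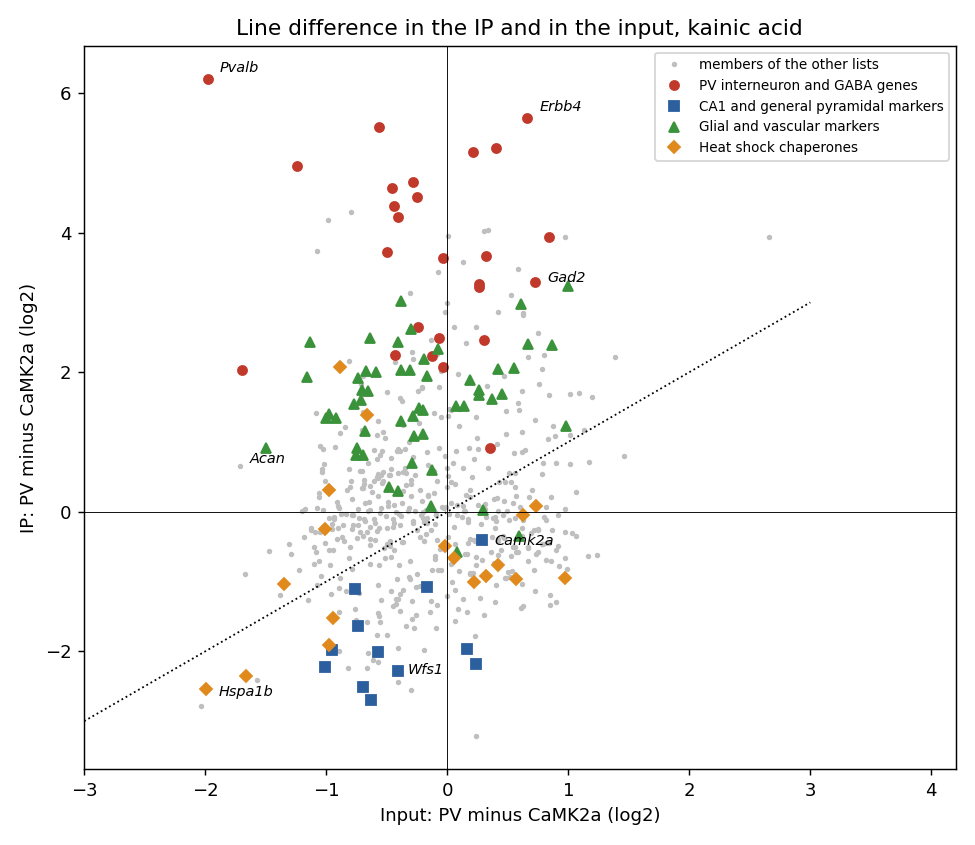
Line difference (PV minus CaMK2a, log2) in the input on the x axis and in the IP on the y axis for members of all gene lists after kainic acid. The dotted line marks equal differences. PV and GABA genes lie far above it (Pvalb at -1.98 and 6.20), most glial markers lie above it, and the heat shock genes Hspa1a and Hspa1b lie near it.

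Under the same 3 conditions, the 10 largest differences towards CaMK2a were Srl (-2.82 ± 0.49), Sult2b1 (-2.75), Pou3f1, Grem1 (-2.69), Doc2b (-2.56), Plet1 (-2.56), Hspa1b, Itpka, Chrm5 (-2.49) and Kcnh3 (-2.44). Doc2b, a calcium sensor of spontaneous and asynchronous release, was at 44.1, 31.6, 40.0 and 23.5 CPM in the PV IP and at 208, 220 and 185 CPM in the CaMK2a IP, with -0.30 in the input. Grem1, a secreted antagonist of bone morphogenetic proteins, was at 1.92 to 6.06 CPM against 17.6 to 31.7 CPM, with 0.38 in the input. Plet1 is no such case, since its input difference was -2.50 and IP and input differed by -0.08 (adjusted p = 0.948). Its call was also lost without CaMK2a replicate 3 (-2.10, adjusted p = 0.0791). Relative to the input, the 5 largest differences towards CaMK2a among called genes that averaged a log2 CPM of at least 3 were those of Hmgn5 (-3.14), Grem1 (-3.09), Iqgap2 (-3.02), Bmp3 (-2.998) and Slc17a6 (-2.90). Slc17a6, the vesicular glutamate transporter VGLUT2, was at 11.8 to 19.5 CPM against 62.6 to 93.2 CPM, with 0.48 in the input. The IP difference of Bmp3, a ligand of the same protein family that Grem1 binds, was -1.96 ± 0.45 with 1.02 in the input, and without CaMK2a replicate 2 it was -1.35 (adjusted p = 0.0631).

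The ion channels divided by subunit. Of 34 potassium and HCN channel genes tested, 9 were higher and 8 lower in the PV IP, and 5 and 4 were lower without CaMK2a replicate 1 and 3. The higher ones included the Kv3 genes Kcnc1 and Kcnc2, the Kv1 genes Kcna1, Kcna2 and Kcna6 (1.11 to 1.45), the Kv1 partner Kcnab3 (2.65 ± 0.24), Kcns3 and the Kv4 partner Kcnip1 (2.65 ± 0.25). Kcnc1 was at 812, 774, 651 and 1131 CPM in the PV IP and at 118, 149 and 134 CPM in the CaMK2a IP. The input differences of Kcnab3, Kcnip1 and Kcnh3 were 0.05, 0.23 and -0.40. On the other side stood Kcnh3, Kcnip3 (-1.95), Kcna4 (-1.49), the SK channel Kcnn2 (-1.24), Kcnk2, the Kv4 gene Kcnd2 (-0.86) and the G protein-gated Kcnj3 and Kcnj6. Among 23 sodium and calcium channel genes 5 were higher and 6 lower (2 to 3 lower without CaMK2a replicate 1, 2 or 3, or PV replicate 2). Scn1a, the sodium channel Nav1.1 of fast-spiking cells, was at 406 to 488 CPM against 87.2 to 110 CPM, a difference of 2.21 ± 0.18 with 0.67 in the input. Cacna2d2, an auxiliary calcium channel subunit, differed by 3.13 ± 0.32, Cacng2 (stargazin) by 1.79 ± 0.25, the P/Q channel gene Cacna1a by 1.36, and Cacnb1 by -1.49 ± 0.20. The input differences of Cacna2d2, Cacng2 and Cacnb1 were -0.30, -0.07 and -0.56.

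Receptor genes differed in the same divided manner. Of 18 glutamate receptor genes tested 3 were higher and 6 lower (3 lower without CaMK2a replicate 1 or 3). The higher count is near the 12.8% over all genes. Grin2d, the NMDA receptor subunit of interneurons, was at 52.4, 41.6, 24.5 and 31.6 CPM in the PV IP and at 4.77, 3.15 and 7.51 CPM in the CaMK2a IP, a difference of 2.86 ± 0.39 with -0.02 in the input. The obligatory subunit Grin1 and Grin2a were lower, by 0.97 and 1.03. The kainate receptor gene Grik3 was higher by 1.47 ± 0.23, with 0.10 in the input. The AMPA receptor genes Gria1 to Gria4 are not analysed here. Of 14 GABA receptor genes 4 were higher and 1 lower (2 higher without CaMK2a replicate 3, and 3 lower without PV replicate 3). Gabra5, which forms extrasynaptic receptors of pyramidal cells, was the lower one at -0.83 ± 0.18. Its input difference was 0.72, and the list's input median was 0.75. Gabrd, of extrasynaptic receptors, was called higher (1.95 ± 0.59, with -0.70 in the input), with PV replicate 4 at 77.4 CPM against 11.1 to 21.1 CPM in the other PV libraries. Without that replicate the difference was 0.99 (adjusted p = 0.0553), and without CaMK2a replicates 1, 2 and 3 the adjusted p was 0.0821, 0.111 and 0.105.

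Of 31 neuromodulator receptor genes 3 were higher and 10 lower in the PV IP (5 to 6 lower without CaMK2a replicate 1, 2 or 3, or PV replicate 1). The higher count is below the 12.8% over all genes. The 3 were the opioid receptors Oprm1 (3.44 ± 0.39) and Oprd1 (2.46 ± 0.31) and the muscarinic receptor Chrm2 (2.82 ± 0.36). Oprd1 and Chrm2 had -0.14 and 0.62 in the input. Oprm1, the mu receptor, was at 14.9 to 28.8 CPM against 1.83 to 2.14 CPM, and its input difference was -0.07. Lower ones included the somatostatin receptors Sstr2, Sstr3 and Sstr4, the muscarinic receptors Chrm1 (-1.27) and Chrm3 (-0.89), the serotonin receptors Htr1a (-1.56) and Htr1b, the adenosine receptor Adora1 (-1.06) and the dopamine receptor Drd5 (-1.98). Npy5r, a neuropeptide Y receptor, had the largest difference among the 10 lower ones (-3.22 ± 0.95, with 0.24 in the input) and kept its call in only 2 of the 7 fits without 1 library, those without PV replicate 2 or 4.

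Neuropeptide precursors were evenly split, with 6 higher and 6 lower of 19 (3 higher without CaMK2a replicate 1, 2 or 3). Tac1, the substance P precursor of PV cells, was at 151, 175, 212 and 325 CPM in the PV IP and at 48.2, 5.66 and 13.7 CPM in the CaMK2a IP, a difference of 3.27 ± 0.58 with 0.26 in the input. Pnoc, the nociceptin precursor, differed by 3.73 ± 0.64 (input -1.07), with PV replicate 4 at 165 CPM and the other PV libraries at 26.6 to 41.5 CPM. Pdyn, the dynorphin precursor, was lower by 2.42 ± 0.47, though by 1.57 in the input as well. Penk, Grp, Nts and Adcyap1 were lower by 1.67 to 2.16. Of 11 granin and prohormone processing genes 4 were lower and none higher: Pcsk2 (-1.44 ± 0.18), Scg2 (-1.38 ± 0.22), Chgb (-1.34 ± 0.15) and Pcsk1 (-1.21 ± 0.26). Pcsk2 and Pcsk1 had 0.16 and 0.00 in the input. Without PV replicate 4, 7 were lower. Chgb, or chromogranin B, was at 850 to 1171 CPM against 2382 to 2557 CPM, with 0.63 in the input.

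At the release site, 6 of 33 vesicle release genes were higher and 9 lower (4 lower without CaMK2a replicate 2 or 3). Isoforms of the same family stood on opposite sides. Cplx1, a complexin that clamps and speeds fusion, was higher by 2.24 ± 0.22 (1462, 1597, 1462 and 2530 CPM against 347, 380 and 391 CPM), with -0.43 in the input, while Cplx2 was lower by 0.95. The SNARE gene Vamp1 was higher by 2.23 ± 0.23, with -0.12 in the input, while Vamp2 was lower by 0.55. Syt2 was higher by 4.72, while Syt5 and Syt12 were lower by 1.99 and 1.13. Of 20 postsynaptic scaffold genes 5 were higher and 6 lower (3 higher without CaMK2a replicate 2 or 3). Iqsec1 was at 601 to 756 CPM against 129 to 154 CPM (2.27 ± 0.18, input -0.08), and Baiap2, an actin regulator of spines, was lower by 1.59 ± 0.18 and by 0.55 in the input. Calcium binding and calmodulin-dependent kinase genes leaned to one side, with 16 of 27 lower and Pvalb alone higher. Without CaMK2a replicates 1, 2 and 3 the lower counts were 12, 11 and 11, and without PV replicate 4 the count was 18. The lower ones included the calmodulin buffer Nrgn (-1.98 ± 0.27, input -0.95), Hpca (-1.55 ± 0.18, input -0.76), Calb1, Camk2b, Camk4 and 3 calcineurin genes. Their median was -0.63 in the IP and 0.06 in the input.

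Genes of the extracellular net around PV cells were higher in 5 of 10 cases with none lower: Hapln1, Vcan, Bcan, Hapln4 and Tnr. Hapln1, a link protein that ties hyaluronan to proteoglycans, was at 83.7, 76.5, 89.4 and 108 CPM in the PV IP and at 9.30, 2.83 and 4.36 CPM in the CaMK2a IP, a difference of 4.04 ± 0.38 with 0.34 in the input. The difference of Vcan (2.21 ± 0.42) was accompanied by 1.38 in the input, and that of Tnr (1.17 ± 0.19) by 1.13. IP and input did not differ by test for Vcan (adjusted p = 0.22) or Tnr (adjusted p = 0.977). Bcan and Hapln4 had -0.70 and -0.37 in the input. Of 17 neuregulin, neuroligin and perisomatic adhesion genes 2 were higher, Erbb4 and Cntnap4 (3.95 ± 0.37, with 0.00 in the input), and 3 lower, Nptxr (-1.44), Pcdh8 and Cadm1. Without PV replicate 4, 6 were lower, and without CaMK2a replicate 3, 1.

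The cytoskeletal genes included very abundant transcripts. Of 22 neurofilament, spectrin and ankyrin genes 15 were higher and 2, Ina and Map2, lower, with a median of 0.70 and a median of 0.54 in the input. Without CaMK2a replicates 2 and 3, 11 and 10 were higher, and 1 was lower without CaMK2a replicate 3. Sptan1, alpha spectrin, was at 10962, 13562, 8635 and 1879 CPM in the PV IP and at 844, 357 and 415 CPM in the CaMK2a IP. PV replicate 4 was by far the lowest PV library and still lay above every CaMK2a library. The difference was 4.02 ± 0.57, with 0.30 in the input, and 4.36 without PV replicate 4. Map1a, a microtubule-associated protein, was at 6844, 9214, 8118 and 6654 CPM against 826, 345 and 336 CPM (3.94 ± 0.33, with 0.97 in the input). Sptbn1 and Dst differed by 3.11 ± 0.40 and 2.85 ± 0.38, with 0.52 and 0.63 in the input. Ppp1r9a (neurabin), an actin-binding scaffold, showed the same arrangement: 4829, 5712, 4975 and 792 CPM against 444, 343 and 308 CPM, with 0.58 in the input. The difference between IP and input was larger than 0 for each of these 5 genes (2.20 to 3.70).

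Heat shock chaperones were lower in the PV IP in 10 of 18 cases and higher in 2, with a median of -0.84 and a median of -0.34 in the input. Hspa1b, which encodes inducible Hsp70, was at 31.8, 22.6, 56.4 and 68.5 CPM in the PV IP and at 294, 133 and 354 CPM in the CaMK2a IP. Its difference of -2.54 ± 0.39 came with -1.99 in the input, and IP and input did not differ by test (adjusted p = 0.601). The same held for its near-identical neighbour Hspa1a (-2.35 and -1.66), with which it can share reads. Dnajb5, an Hsp40 co-chaperone, was lower by 1.91 ± 0.17, by 0.98 in the input, and still by 0.96 relative to the input (adjusted p = 0.013). Hspb8 (2.08 ± 0.40) and Cryab (1.38), both small heat shock proteins, were the higher ones, and Hspb8 had -0.89 in the input.

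Cytosolic ribosomal proteins showed little difference, with 4 higher and 2 lower of 67, below the shares over all genes (12.8% and 8.93%), and a median of 0.00. Without CaMK2a replicate 1 and 3, 2 and 1 were higher, the lower count was 0 to 1 without any 1 of CaMK2a replicates 1 to 3 or PV replicates 1 to 3, and without PV replicate 4 it was 10. Nuclear encoded subunits of the respiratory chain were higher in 8 of 74 cases, led by Cox6a2, with a median of 0.08, and this is no larger a share than the 12.8% over all genes. Without CaMK2a replicates 1, 2 and 3 the counts were 2, 3 and 2, without PV replicate 2 it was 5, and without PV replicate 4 8 were lower. Mitochondrially encoded genes were higher in 7 of 7 cases (median 1.69; 3 without CaMK2a replicate 2), while edgeR called 0 of 8 in the difference between IP and input (5 of 8 at an unadjusted p under 0.05, and 1 called by DESeq2). With the lysate pool as a block 5 of 8 were called, and without PV pool 4 6 of 8. mt-Nd1, of complex I, was at 4976, 3800, 3843 and 1285 CPM in the PV IP and at 997, 807 and 1136 CPM in the CaMK2a IP, with 0.76 in the input. It was the only mitochondrial gene tested whose groups did not overlap. For the others PV replicates 1 to 3 lay above the CaMK2a range and PV replicate 4 within or below it. In mt-Nd5, for example, PV replicate 4 was at 969 CPM against 1240 to 1661 CPM in the CaMK2a IP.

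**Figure D4:**
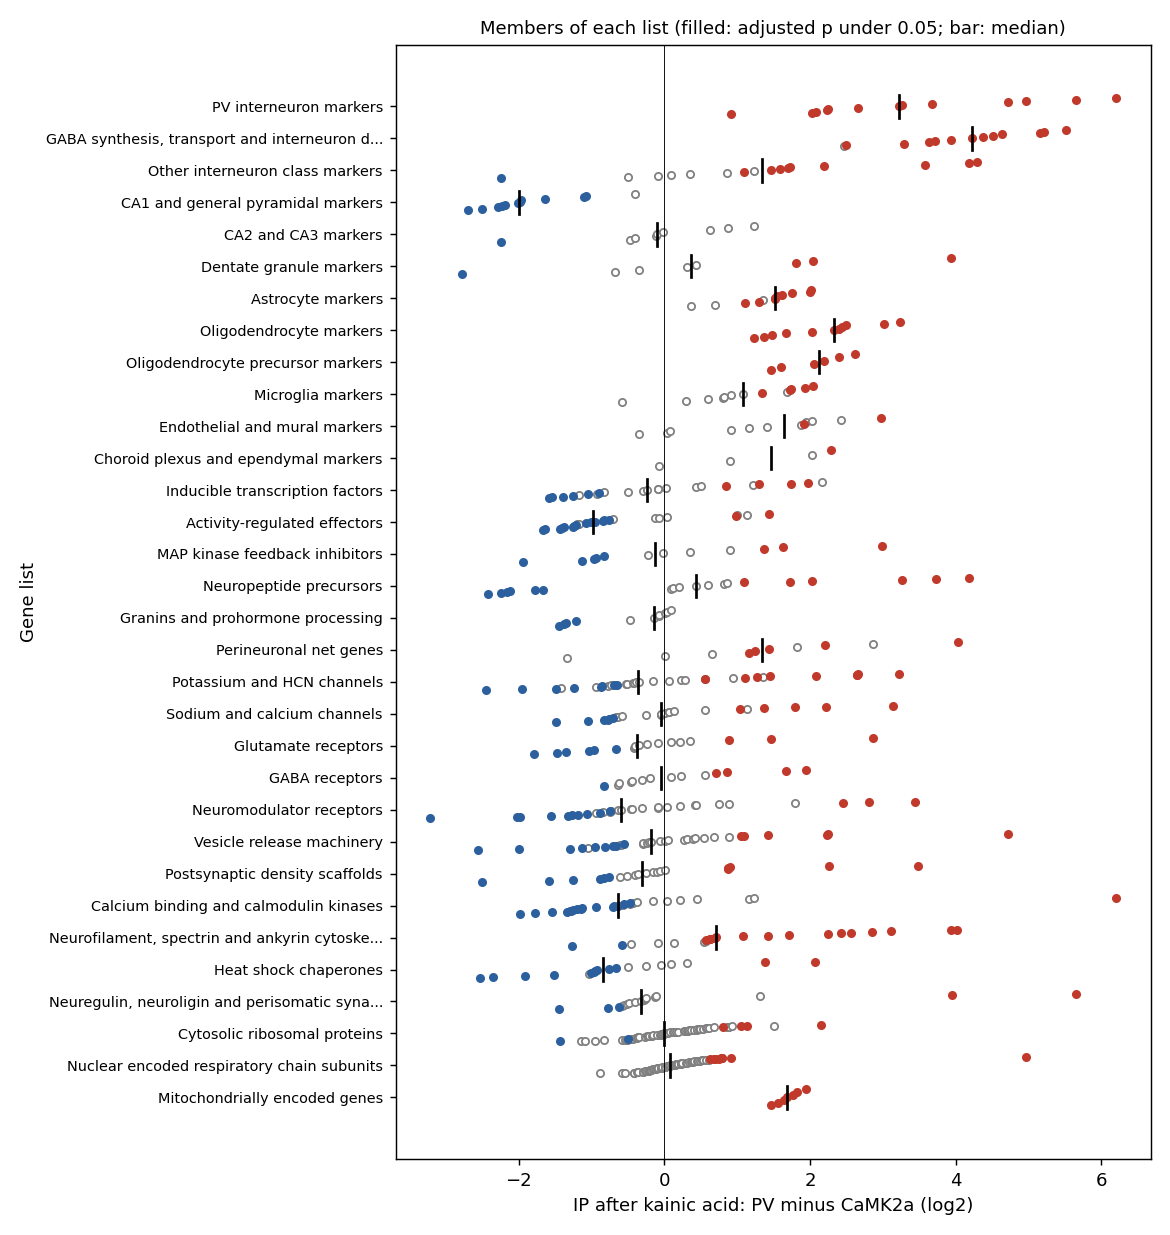
Difference between the PV and CaMK2a IP after kainic acid (log2, x axis) for every tested member of the gene lists (y axis). Filled points passed the test (red higher, blue lower in PV), open points did not, and bars are medians. PV, GABA and oligodendrocyte genes lie to the right (medians 3.22, 4.23 and 2.33), pyramidal and calcium binding genes mostly to the left (-1.998 and -0.63), and channels and receptors on both sides.

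At 6 h after kainic acid the lines differed in part of the activity-regulated program. Such a difference can also be present after PBS, and whether kainic acid altered it is tested further below. Of 23 inducible transcription factors tested, 4 were higher and 6 lower in the PV IP. The higher count was 0 and 1 without CaMK2a replicates 2 and 3 and 1 without PV replicate 4, and 3 were lower without CaMK2a replicate 1 or 3 or PV replicate 1 or 3. Fos was at 256, 253, 329 and 916 CPM in the PV IP and at 579, 310 and 510 CPM in the CaMK2a IP. The groups overlapped only through PV replicates 3 and 4, and the difference was -0.09 ± 0.41 (adjusted p = 0.905), with -0.73 in the input. Without PV replicate 4 it was -0.74 (adjusted p = 0.028), so this result rests on that library. Npas4, a neuronal activity factor, was at 400, 263, 330 and 773 CPM against 1371, 750 and 1049 CPM, a difference of -1.26 ± 0.32 with -1.15 in the input. Its adjusted p was 0.0158, and 0.0666, 0.0527 and 0.0558 without CaMK2a replicate 1, PV replicate 1 and PV replicate 3. Bhlhe40 was lower by 1.58 ± 0.16, and by 0.66 in the input (118 to 132 CPM against 342 to 397 CPM), and the other lower ones were Egr3, Egr4, Klf10 and Nr4a3. Maff and Klf6 were higher by 1.31 and 0.84. The calls of Klf4 (1.97 ± 0.57) and Fosl1 (1.74 ± 0.49) were both lost without CaMK2a replicate 2 (adjusted p = 0.119 and 0.113), CaMK2a replicate 3 (0.102 and 0.0962) or PV replicate 4 (0.058 and 0.0531), and that of Klf4 without PV replicate 3 (0.0553).

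Effector genes leaned towards the CaMK2a IP. Of 24 activity-regulated effectors 14 were lower and 2 higher in the PV IP, with a median of -0.98 and a median of -0.20 in the input. Without PV replicate 4, 18 were lower, but 10 were lower without CaMK2a replicate 1 or 3 or PV replicate 2, and 11 without PV replicate 1. The higher count was 1 without CaMK2a replicate 1 or 2 or PV replicate 2. Scg2, the secretogranin precursor, was at 1381, 1499, 1885 and 2293 CPM in the PV IP and at 5825, 3298 and 4656 CPM in the CaMK2a IP. Its difference of -1.38 ± 0.22 (adjusted p = 0.00096) stood against 0.61 in the input. After PBS the line difference of Scg2 was -0.665, and the change from PBS did not pass the test (adjusted p = 0.645). Bdnf, a neurotrophin, was at 271, 297, 418 and 264 CPM against 942, 517 and 746 CPM, a difference of -1.24 ± 0.23 (adjusted p = 0.00252) with 0.27 in the input. Ptgs2, or COX-2, was lower by 1.66 ± 0.20, and the sorting receptor Sorcs3 by 1.43 ± 0.18, with -0.09 and -0.14 in the input. Inhba, the activin A subunit, was at 1704, 1798, 1874 and 699 CPM against 3373, 2290 and 3141 CPM. Its difference was -0.95 ± 0.28 (adjusted p = 0.0311) and 0.96 in the input. The adjusted p was 0.0978 and 0.0961 without CaMK2a replicates 1 and 3, and 0.058 and 0.0506 without PV replicates 1 and 2. Thbs1 was lower by 1.63 ± 0.43, and by 1.11 (adjusted p = 0.102) without CaMK2a replicate 1, with 0.0549 and 0.0516 without PV replicates 1 and 2.

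Feedback inhibitors of MAP kinases went both ways, 3 higher and 5 lower of 12 (3 lower without CaMK2a replicate 1). Dusp10, a phosphatase of p38 and JNK, was at 17.4, 24.3, 24.98 and 60.3 CPM in the PV IP and at 4.65, 1.68 and 5.68 CPM in the CaMK2a IP, a difference of 2.99 ± 0.53 with 0.00 in the input. Spry4 and Dusp1 were higher by 1.63 ± 0.28 and 1.37 ± 0.24, with -0.39 and 0.01 in the input. The ERK phosphatases Dusp4 (-1.13), Dusp5 (-1.94) and Dusp6 (-0.96), with Spred2 and Errfi1, were lower. Their input differences were -0.46, -0.94, -0.31, -0.32 and -0.075. Of these 5, only Spred2 differed between IP and input by test (adjusted p = 0.0267, against 0.128 to 0.228 for the others). Dusp10, Spry4 and Dusp1 all did (0.00115 to 0.00972). The IP minus input differences of Dusp4, Dusp5, Dusp6 and Errfi1 were -0.70, -1.03, -0.68 and -0.78. That test recovered 13.1% of simulated 2-fold changes, so IP and input may still differ for these genes. The call of Dusp5 was lost without CaMK2a replicate 1 (-1.41, adjusted p = 0.132). After PBS the line differences of Dusp10, Spry4 and Dusp1 were 4.01, 2.06 and 0.52. Those of Dusp4, Dusp5, Dusp6, Spred2 and Errfi1 were -1.185, -2.24, -1.865, -0.94 and -0.77. The change from PBS to kainic acid passed the test for none of these genes.

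Few genes passed a direct test of whether kainic acid altered the line difference, an edgeR test that recovered 12.2% of simulated 2-fold and 55.1% of 4-fold changes. Over all genes, the line difference after kainic acid minus that after PBS passed for 11 of 11781 genes (0.0934%), 3 higher (0.0255%) and 8 lower (0.0679%), with 719 genes at an unadjusted p under 0.05. Without PV replicate 4 in both treatments, chosen after seeing the data, 31 and 39 passed. With 1 IP library left out at a time, 0 to 6 genes passed as higher and 2 to 18 as lower. DESeq2 called 20 and 23. March4, an E3 ubiquitin ligase gene, and Egr1 kept their calls in only 4 and 3 of those 14 fits, whereas Tll1 and Bag3 kept theirs in all 14. Levels in the next paragraphs are scaled over the 14 IP libraries of both treatments.

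Tll1 (GeneID 21892, chr8:64013098-64205993, minus strand, 23 exons), a secreted protease related to BMP1, had the largest change among the called genes averaging a log2 CPM of at least 3. After PBS it was at 45.0, 64.6, 49.2 and 33.0 CPM in the PV IP and at 0.511, 1.03 and 1.93 CPM in the CaMK2a IP. After kainic acid it was at 105, 124, 72.4 and 94.6 CPM and at 38.1, 45.8 and 74.4 CPM. A PV transcript with a line difference of 5.44 after PBS thus differed by 0.98 ± 0.27 after kainic acid (adjusted p = 0.0216), and the difference fell by 4.51 ± 0.49 (adjusted p = 0.00016). The remaining difference lost its call without CaMK2a replicate 1 (0.79, adjusted p = 0.0974), CaMK2a replicate 2 (0.106) or PV replicate 2 (0.0536). It was 0.41 in the input.

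Acan (GeneID 11595, chr7:79053202-79115099, plus strand, 18 exons) encodes aggrecan, the main proteoglycan of the perineuronal nets that surround PV cells. After PBS it was at 6.58, 10.1, 13.7 and 6.02 CPM in the PV IP and at 0.320, 0.517 and 0.0965 CPM in the CaMK2a IP. After kainic acid the values were 23.8, 15.8, 47.3 and 45.5 CPM and 16.5, 15.9 and 33.7 CPM, so the groups overlapped. The difference of 0.65 ± 0.41 after kainic acid did not pass the test (adjusted p = 0.286), and it was smaller than after PBS by 4.29 ± 0.73 (adjusted p = 0.0176). That change was called in 10 of the 14 fits without 1 library, with a largest adjusted p of 0.134. In the input after kainic acid Acan was at 40.7 ± 16.2 CPM in the PV line (n = 4) and 134 ± 24.8 CPM in the CaMK2a line (n = 3).

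Bag3 (GeneID 29810, chr7:128523583-128546981, plus strand, 4 exons), a co-chaperone of Hsp70, changed sides. After PBS it was at 14.8 to 24.4 CPM in the PV IP and at 5.21 to 6.21 CPM in the CaMK2a IP. After kainic acid it was at 56.0, 57.8, 72.2 and 86.0 CPM and at 191, 183 and 239 CPM. The line difference went from 1.74 to -1.52 ± 0.21, a change of -3.31 ± 0.32 (adjusted p = 4.9e-05), and the input difference after kainic acid was -0.94. Lbh and Cgref1 also fell in line difference, by 2.25 ± 0.36 and 2.17 ± 0.34, and kept their calls in 12 and 10 of the 14 fits.

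The opposite change was seen for the immediate early gene Egr1, the repressor gene Klf3 and March4. Egr1 was at 69.4 to 107 CPM after PBS and 732 to 2213 CPM after kainic acid in the PV IP, against 490 to 591 CPM and 990 to 2582 CPM in the CaMK2a IP. Its difference of -2.62 after PBS was -0.24 ± 0.35 after kainic acid, a change of 2.33 ± 0.44 (adjusted p = 0.0432). Klf3 was at 102 to 134 CPM after PBS and 69.1 to 138 CPM after kainic acid in the PV IP, and at 101 to 119 CPM and 25.7 to 32.7 CPM in the CaMK2a IP, so that a difference of 0.12 became 1.93 ± 0.26. March4 stood at 67.1 CPM on average after PBS and at 36.3 CPM after kainic acid in the CaMK2a IP, and at 76.6 and 112 CPM in the PV IP.

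**Figure D5:**
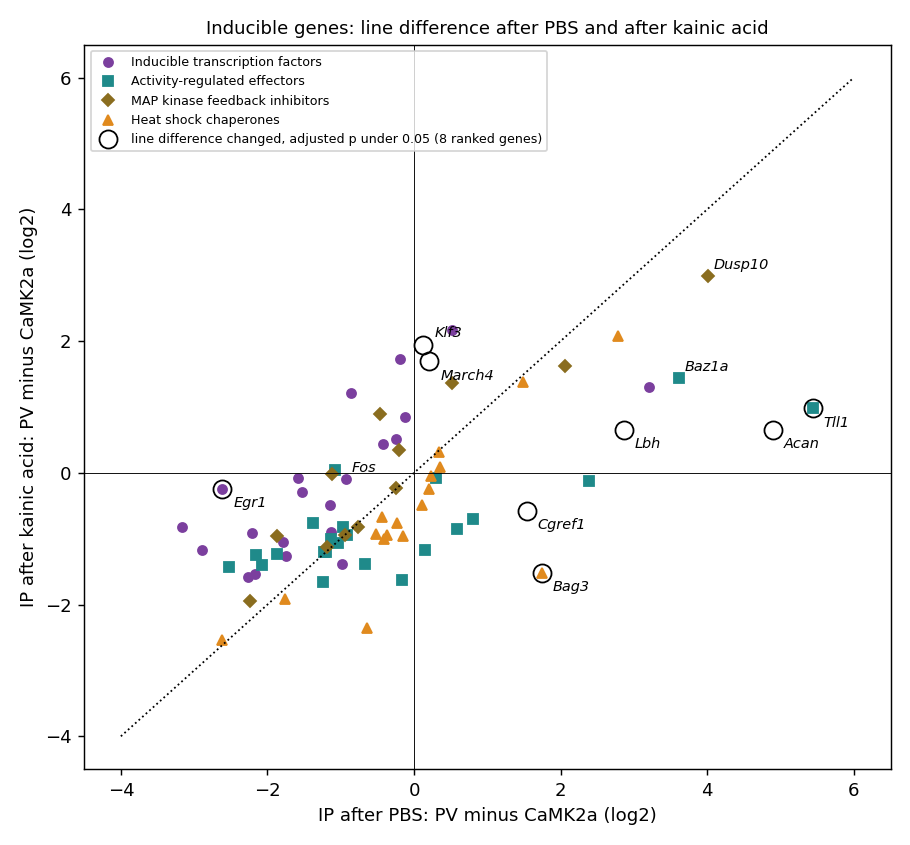
Difference between the PV and CaMK2a IP (log2) after PBS on the x axis and after kainic acid on the y axis for inducible and chaperone genes. The dotted line marks equal differences, and circles mark the 8 ranked genes whose difference changed. Tll1 (5.44 and 0.98), Acan (4.89 and 0.65) and Bag3 (1.74 and -1.52) lie far below the line and Egr1 (-2.62 and -0.24) above it.

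The 250 bases before the RefSeq start of the 3 ranked genes with the largest change are printed because the line differences of these genes fell together. They come from the GRCm38.p6 promoter table, at chr8:64206009-64206258 (minus strand) for Tll1, chr7:79052976-79053225 (plus) for Acan and chr7:128523333-128523582 (plus) for Bag3, written 5′ to 3′ in the sense of the gene, with motif matches in capitals.
Tll1: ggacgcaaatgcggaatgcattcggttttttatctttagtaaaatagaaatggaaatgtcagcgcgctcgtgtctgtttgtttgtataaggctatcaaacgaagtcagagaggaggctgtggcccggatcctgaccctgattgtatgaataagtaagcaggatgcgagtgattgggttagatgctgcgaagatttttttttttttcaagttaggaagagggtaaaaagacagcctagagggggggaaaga
Acan: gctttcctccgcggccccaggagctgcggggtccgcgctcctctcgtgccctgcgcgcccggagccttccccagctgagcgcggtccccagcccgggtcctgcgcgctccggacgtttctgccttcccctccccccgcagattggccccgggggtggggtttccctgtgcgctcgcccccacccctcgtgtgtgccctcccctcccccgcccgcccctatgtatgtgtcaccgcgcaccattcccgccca
Bag3: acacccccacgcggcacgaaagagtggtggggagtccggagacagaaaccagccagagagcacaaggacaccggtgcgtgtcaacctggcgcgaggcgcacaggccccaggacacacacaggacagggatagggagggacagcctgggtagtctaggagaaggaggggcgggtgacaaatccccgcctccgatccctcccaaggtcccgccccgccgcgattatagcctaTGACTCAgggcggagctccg
Both strands were searched for the cAMP response element TGACGTCA, the AP-1 element TGACTCA or TGAGTCA, the heat shock arrangements GAANNTTC and TTCNNGAA, and the EGR element GCGTGGGCG or CGCCCACGC. The 1 match was an AP-1 element in Bag3, 20 to 14 bases before the start. Of 27025 genes with a promoter in the table, 4.43% hold that element in the same window, 1.62% the cAMP response element, 12.9% a heat shock arrangement and 0.54% the EGR element. These are matches of letters and no measure of binding.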

How the data were processed

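Anti-HA IP and input RNA was amplified by SPIA (NuGEN Ovation V2) and sequenced as single-end reads, per the labels' protocols; strandedness is not stated, so overlapping genes on opposite strands cannot be told apart. By GENCODE M21, 39 of 153 named genes have such an overlap, Slc32a1, Bdnf, Cox6a2, Map1a and Sptbn1 among them. BWA, edgeR and mm10 (GRCm38) are named in the submitters' processing notes, without versions. The deposited counts are whole reads per gene, and they alone were tested here. The deposited RPKM, CPM, fold ratio and p-value columns, made by the authors, were not used in tests. Counts came from the IP and input tables of each line joined by gene symbol: 13083 genes were in both IP tables, 812 only in the PV table and 301 only in the CaMK2a table. The libraries held 6.06 to 15.8 M counts. Column names give the PBS groups as 0hr, whereas the labels say 6 h.

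Tests were edgeR 4.0.16 quasi-likelihood tests (R 4.3.3) with TMM scaling; genes passed filterByExpr (minimum count 10), the prior count was 0.125, and calls used Benjamini-Hochberg adjusted p under 0.05 over all genes tested. SE is the size of the log2 difference over the square root of F. Models were group means: PV against CaMK2a in the IP and in the input after kainic acid, their difference, and the IP difference after kainic acid minus after PBS. Replicates are separate pools. Each IP correlated best with the input of its own number (r 0.07 to 0.41 against -0.26 to 0.05 for other numbers). Both come from 1 lysate per the series' design text, so pools pair IP and input. The IP minus input results of single genes come from the group means, which leave this pairing out. The fit with the lysate pool as a block uses the pairing and called more genes (1539 higher and 1726 lower, against 1143 and 1124).

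The libraries compared, the 32 gene lists and the genes named were chosen with earlier results of these data known. Named genes were 16 fixed ones, the 10 largest differences each way in the IP (called, groups that do not overlap, average log2 CPM 3 or more, no clone symbol), the 5 largest each way in the other 2 contrasts, and up to 4 members of a list. Others in lists of calls were chosen after their values were seen, and some genes are not reported here. On simulated counts the IP test recovered 70.7% of 4-fold changes and 37.8% of 2-fold changes, with 7 false calls among 114. The IP minus input test recovered 56.1% and 13.1%, with 4 false calls among 72. Alternatives were RLE and upper-quartile factors, DESeq2 1.42.0, no filter, a stricter filter (each library of 1 group at 10 counts or above), unlisted genes at 0, a fit to all 28 libraries, a replicate block and each library left out. Figures used Python 3.11.15 and matplotlib 3.10.9.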

Additional observations from a re-analysis of the deposited data

Results flagged for a closer look

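In the PV IP, 12 of the named genes reported here had 1 library far from the other 3 (gap over range above Dixon's 95% critical value), and in 11 of them it was PV replicate 4. By chance about 1 in 20 groups is flagged. In all 153 genes were named, not all of them reported here, so several flags can arise by chance. The genes were chosen with results of these data known, so that rate is only a rough guide. Replicate 4 was the highest for Cplx1 (2530 CPM against 1462 to 1597 in the others), Crhbp (477 against 212 to 234), Erbb4 (779 against 579 to 592), Fos (916 against 253 to 329), Gabrd (77.4 against 11.1 to 21.1), Gad1 (1454 against 882 to 941), Pnoc (165 against 26.6 to 41.5), Pvalb (163 against 84.4 to 92.5) and Vamp1 (602 against 342 to 356). It was the lowest for Inhba (699 CPM against 1704 to 1874) and Sptbn1 (2106 against 6864 to 7662). For Grik3, PV replicate 3 was the lowest, at 90.4 CPM against 150 to 151 in the others.

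The line difference in the IP was not the same after kainic acid as after PBS, by a test of the difference itself, for Tll1 (-4.51), Acan (-4.29), Bag3 (-3.31), Lbh (-2.25), Cgref1 (-2.17), March4 (1.43), Klf3 (1.76) and Egr1 (2.33), on the log2 scale. Also passing were Ubash3b (-2.10), Fam43a (-1.785) and Pcdh8 (-1.77). Pcdh8 changed sides, from 0.95 after PBS to -0.77 after kainic acid, and kept its call in 13 of the 14 fits without 1 library.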

How the results depend on the processing

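Fitted to all 28 libraries, the IP comparison called 2221 genes higher and 1788 lower. DESeq2 called 1181 genes lower in the PV input. With the replicate number as a block, the input comparison called 2918 higher and 2847 lower and the IP comparison 1690 and 1484; between lines same-numbered pools share only a number (r 0.01 to 0.07). With the lysate pool as a block, IP minus input gave 1726 lower. For kainic acid minus PBS, DESeq2 called 20 higher and 23 lower, the fit to 28 libraries 11 and 22, the replicate block 9 and 18, and PV replicates 1 to 3 alone, chosen after seeing the data, 31 and 39.

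With 1 library left out at a time, the IP comparison ranged from 696 to 1782 higher and 451 to 1445 lower, the input from 0 to 2894 and 0 to 2563, IP minus input (1 pool at a time) from 423 to 1595 and 364 to 1768, and kainic acid minus PBS from 0 to 6 and 2 to 18. Where the input gave 0, edgeR had 3195 and 2663 genes at an unadjusted p under 0.05. The cause was not tested.

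Kl went from -0.07 to 0.078 under the replicate block and ranged from -0.456 to 0.151 without 1 library. Egr1 ranged from -0.544 to 0.167, Fos from -0.739 to 0.106 and Sst from -0.246 to 0.334. Of 129 named genes called in the IP, 27 lost the call without some library and 6 under another alternative (Emx1, Gabrd, Inhba, Itgam, Slco1a4 and mt-Nd6). Of the 24 not called, 8 gained a call without some library and 12 under another alternative, among them Fos (-0.70, adjusted p = 0.00715) and Egr1 (-0.49, adjusted p = 0.0272) under the replicate block. The IP test recovered 37.8% of simulated 2-fold changes, so a gene not called may differ by that much.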
